A study of Mus musculus with 11 samples.

Results

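Il12rb2fl/fl mice with experimental autoimmune encephalomyelitis (EAE), a T cell driven inflammatory disease of the central nervous system (CNS), were compared with naive mice by single-nucleus RNA sequencing. The comparison took the 4 libraries of immunised Il12rb2fl/fl mice without NestinCre, named here fl EAE 1 to 4, and all 3 libraries of non-immunised mice, namely 2 of Il12rb2fl/fl mice (fl naive 2 and fl naive 3) and 1 of a NestinCre/+Il12rb2fl/fl mouse (NestinCre naive 2). These are 7 of the 11 libraries in the series, and the other 4 are of NestinCre/+Il12rb2fl/fl EAE mice. All mice were male, 8 to 12 weeks old, and every library carries the loxP-flanked ("floxed") Il12rb2 allele, which encodes the IL-12-specific receptor chain. The NestinCre transgene deletes that allele in cells derived from neural progenitors, that is in neurons, astrocytes and oligodendrocytes but not in microglia, so that 1 of the 3 naive libraries differs in genotype from every EAE library in the comparison. EAE was induced with a myelin oligodendrocyte glycoprotein peptide in complete Freund's adjuvant and pertussis toxin, and tissue (cerebellum, brainstem and upper cervical spinal cord, labelled as CNS) was taken on day 10. A naive mouse received none of these agents, so the disease, the adjuvant and the toxin cannot be told apart here.

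Sequencing run was partly confounded with condition. fl EAE 1, 2 and 3 came from run 1, fl EAE 4 and fl naive 2 from run 2, and fl naive 3 and NestinCre naive 2 from run 3. Run 2 alone therefore holds both conditions, with 1 library of each, and the difference between fl EAE 4 and fl naive 2 (the run 2 pair) is given beside the pooled results as log2(CPM + 1), where CPM is UMIs per 1000000 UMIs of a cell class. One library makes no replicate, so the run 2 pair has no test. Between run 1 and run 2 libraries of EAE mice alone, with genotype in the model, 338 genes over 12 classes had an adjusted p below 0.05 by edgeR's quasi-likelihood test, 196 higher and 142 lower in run 1. For most results below, run and condition cannot be told apart.

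In EAE, myelin-reactive T cells cross into the CNS and recruit monocytes and neutrophils, and microglia, the resident macrophages, respond with chemokines and antigen presentation genes. Interferons act through STAT transcription factors to raise a wide set of antiviral genes, and interferon gamma in particular raises the immunity-related GTPases and guanylate-binding proteins, which attack membranes around intracellular pathogens. IL-12, the ligand of the Il12rb1 and Il12rb2 receptor chains, is a classical inducer of interferon gamma in T and NK cells. Glucocorticoids, released under stress and illness, act through their nuclear receptor on a further set of genes, among them Fkbp5, Tsc22d3 and Sgk1.

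After filtering, 102608 nuclei were kept, 58685 from EAE and 43923 from naive libraries, with 12896 to 16609 per library, a median of 2360 unique molecular identifiers (UMIs) and 1437 genes per nucleus, and 47814492 to 80536461 UMIs in all per library. Mitochondrial UMIs made up 0.191% to 0.503% of a library, and no pair of libraries shared more than 0.692% of cell barcodes. Nuclei were clustered and named by markers, so that "microglia" and the other class names stand for nuclei that resemble the class by its markers, and 98 of 109 clusters received a name. Counts were then summed per library and class and tested in the 13 classes with at least 10 nuclei in each of the 7 libraries. Nothing in the labels says which libraries share a litter, and p-values measure the spread between these libraries only. Il12rb2 counts did not separate the NestinCre library from the others, as in granule cells it stood at 16.5 CPM there, against 17.6 and 18.1 CPM in the floxed naive libraries and 14.3 to 20.9 CPM in EAE. A count over the whole gene includes sequence outside the floxed part and is no check of the deletion. fl naive 2 stood apart in cell composition, with 57.1% granule cells against 65.4% to 77.8% in the other 6 libraries. In granule cells the median absolute log2 difference between 2 libraries was 0.1 to 0.221 among EAE libraries, 0.142 to 0.219 among naive libraries and 0.163 to 0.312 between the conditions, and in microglia the ranges were 0.351 to 0.421, 0.3 to 0.31 and 0.338 to 0.432.

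By edgeR over the 7 libraries, microglia held 70 of the 85 genes called between EAE and naive mice, an order that DESeq2 (32 in microglia, 102 in mature oligodendrocytes and 99 in granule cells) and run in the model (101, 652 and 150) did not keep. Of 6590 genes tested in microglia, 70 (1.06%) had an adjusted p below 0.05 by edgeR's quasi-likelihood test with Benjamini-Hochberg adjustment, 41 higher (0.622%) and 29 lower (0.44%) in EAE, and genes past this threshold are named as having risen or fallen. Oligodendrocyte progenitor cells (OPCs) had 12 such genes of 5101 (0.235%). Bergmann glia, the radial astrocytes of the cerebellar cortex, had 1 of 4874 (0.0205%), Purkinje cells 1 of 7346 (0.0136%) and vascular leptomeningeal cells or fibroblasts 1 of 1288 (0.0776%). No gene passed in granule cells (0.0% of 15895 genes, with 1858 at an unadjusted p below 0.05 and 99 called by DESeq2), in mature oligodendrocytes (0.0% of 12759, with 1535 and 102) or in astrocytes (0.0% of 7495, with 509 and 1). The same edgeR test called no gene in excitatory neurons (0.0% of 14343, 1492 unadjusted, 15 by DESeq2), inhibitory neurons (0.0% of 13982, 1511 and 24), molecular layer interneurons (0.0% of 12064, 1219 and 20), newly formed oligodendrocytes (0.0% of 2915, 276 and 1) or unipolar brush cells (0.0% of 3911, 190 unadjusted, and 0 by DESeq2). In simulated counts with the same library sizes, the test recovered 84 of 85 changes of 4-fold and 62 of 92 of 2-fold in microglia. Those counts held no run effect and no outlying library, so this recovery need not hold for the real counts.

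The number of genes called rested on single libraries. Over all 13 classes 85 genes passed, 26 without fl naive 3, 38 without NestinCre naive 2, 45 without fl EAE 1 and 618 without fl naive 2. In granule cells 109 genes passed once fl naive 2 was left out, 22 higher and 87 lower in EAE, and in mature oligodendrocytes 68 did, 14 higher and 54 lower. Microglia ranged from 15 genes (without fl naive 3) to 85 (without fl EAE 2), with 18 without NestinCre naive 2, 34 without fl naive 2 and 40 without fl EAE 1. Of the 70 microglial genes 67 to 70 could be tested with a library left out, of which none changed sign and between 15 and 58 were still called. With run in the model the difference rests on the run 2 pair: 25 of the 70 were still called over the 7 libraries, and 0 once the 4 NestinCre/+Il12rb2fl/fl EAE libraries were added.

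**Figure D1:**
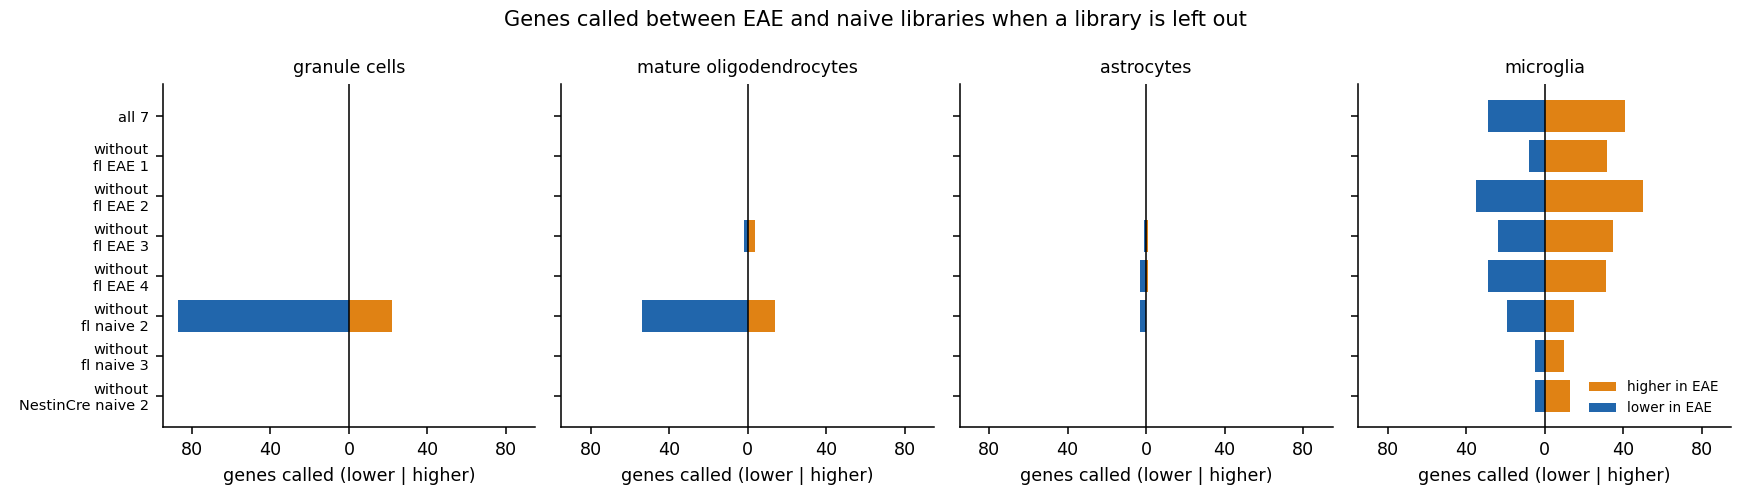
Number of genes called at an adjusted p below 0.05 (edgeR), lower in EAE to the left and higher to the right, in 4 cell classes with all 7 libraries and with each library left out. Microglia had calls in every setting, and granule cells and mature oligodendrocytes reached 109 and 68 calls without fl naive 2.

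Microglia of EAE mice had higher Ccl12, Ifi207, Rai14, Cd244a and Fkbp5, the 5 genes with the largest rise under the naming rule. That rule takes only genes whose groups do not overlap and whose run 2 pair goes the same way, so neither trait adds support. Each microglial sum came from 103 to 373 nuclei and 182229 to 521426 UMIs, so 1 UMI was worth several CPM. Some called genes passed the filter on low counts, which precedes the test, through a single group. Ifi207 and Rai14 did so through their EAE libraries alone, and Neurl3 and D7Ertd443e, given below, through their naive ones alone. Which such genes were tested is shaped by that filter. Ccl12, a monocyte-attracting chemokine gene (GRCm39, chr11:81992645-81994466, plus strand), stood at 124, 60.4, 259 and 112 CPM in fl EAE 1 to 4 and at 9.59, 35.7 and 26.1 CPM in the naive libraries (both floxed ones by number, then the NestinCre one), the order used throughout. Every EAE library lay above every naive one, with the highest value in fl EAE 3 (log2 fold change 2.76, SE 0.74, edgeR adjusted p = 0.0315, and 3.41 in the run 2 pair). Cd244a (chr1:171386708-171437315, plus strand), a receptor of the SLAM family, was at 150, 43.9, 146 and 139 CPM in EAE against 19.2, 39 and 29.3 CPM in naive mice (log2 fold change 2.14, SE 0.44, adjusted p = 0.00123, run 2 pair 2.79). fl EAE 1, 3 and 4 were close together and fl EAE 2 lay just above the naive range. Cd244a and Adamts16 kept an adjusted p below 0.05 with any 1 library left out, which no other gene among the 20 named calls did.

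Ifi207, an interferon-inducible gene of the p200 family of DNA sensors, was at 31.1, 32.9, 102 and 44.0 CPM against 13.4, 16.2 and 6.52 CPM (log2 fold change 2.22, SE 0.55, adjusted p = 0.0232, run 2 pair 1.64). Rai14, which encodes an actin-associated protein, was at 36.3, 27.4, 117 and 37.2 CPM against 13.4, 13 and 13 CPM (2.19, SE 0.57, adjusted p = 0.0253, run 2 pair 1.41). In both genes fl EAE 3 lay far above the other EAE libraries. Fkbp5, a co-chaperone of the glucocorticoid receptor that is itself a receptor target, had fl EAE 3 as the lowest EAE library instead: 757, 598, 310 and 778 CPM against 171, 169 and 238 CPM (1.65, SE 0.46, adjusted p = 0.0405, run 2 pair 2.18). Fkbp5 lost its call in 6 of the 7 fits with a library left out, and Ccl12 in 5.

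Further genes that rose in microglia were chosen after their values were seen, and make up no list that was tested. Cgas, the cytosolic DNA sensor, was at 109, 87.8, 115 and 108 CPM against 47.9, 58.5 and 39.1 CPM (1.12, SE 0.30, adjusted p = 0.0326). Fcgr2b, the inhibitory Fc gamma receptor, was at 109, 87.8, 117 and 115 CPM against 44.1, 22.7 and 68.5 CPM (1.26, SE 0.34, adjusted p = 0.0305). Apobec3, a cytidine deaminase that restricts retroviruses, was at 280, 313, 318 and 304 CPM against 175, 136 and 222 CPM (0.77, adjusted p = 0.0315). In all 3 genes the 4 EAE libraries lay close together and above the naive ones. Ptprc, which encodes the pan-leukocyte antigen CD45, rose by 0.73 on the log2 scale, Ly86, a partner of the Toll-like receptor relative CD180, by 0.83, and Map3k8, a kinase downstream of Toll-like receptors, by 1.40. Cept1 (a phospholipid synthesis enzyme, 1.30, adjusted p = 0.000221) and Atp8a1 (a phospholipid flippase, 1.09, adjusted p = 0.000518) were among the smallest p-values. Top2a and Rbl1, which act in cell division, also rose, by 2.74 and 1.54, and were the only 2 of the 70 genes in which the groups overlapped.

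**Figure D2:**
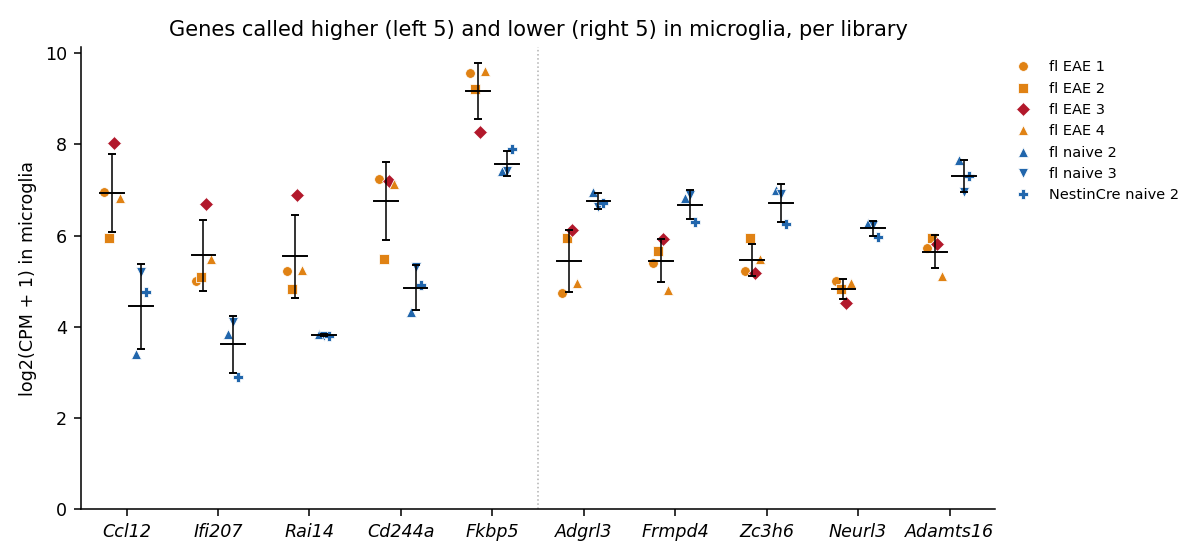
Level in microglia of the 5 named genes called higher and the 5 called lower in EAE, as log2(CPM + 1) per library (points; the red diamond is fl EAE 3), with the mean (line) and SD (bar) of each group. The 4 EAE libraries do not overlap the 3 naive ones in any of the 10 genes, which the naming rule required.

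The promoters of these genes were read from the RefSeq table, a 300-base window around each annotated start (build GRCm38.p6, whereas the counts used GRCm39), and searched on both strands for GAAA, any 2 bases and GAAA again, the core of an interferon-stimulated response element. It was found in 3 of the 35 genes that rose in microglia and had a promoter in the table (8.57%, of 41), in 10 of 22 matched members of the list of interferon-stimulated genes (45.5%, of 30) and in 1079 of all 27025 promoters (3.99%). The 3 genes were Ifi207 (chr1:173741760-173742059, minus strand), Apobec3 (chr15:79892158-79892457, plus strand) and Eif2ak2 (chr17:78882523-78882822, minus strand), shown because they rose and carry the motif. Capitals mark it, in Apobec3 on the opposite strand. A match is a description of the sequence, not evidence of binding.
Ifi207: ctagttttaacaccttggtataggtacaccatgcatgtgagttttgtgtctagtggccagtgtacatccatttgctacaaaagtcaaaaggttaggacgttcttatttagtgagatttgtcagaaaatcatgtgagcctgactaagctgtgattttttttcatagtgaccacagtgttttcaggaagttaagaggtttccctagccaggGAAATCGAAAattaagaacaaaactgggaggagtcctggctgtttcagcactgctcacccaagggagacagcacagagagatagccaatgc
Apobec3: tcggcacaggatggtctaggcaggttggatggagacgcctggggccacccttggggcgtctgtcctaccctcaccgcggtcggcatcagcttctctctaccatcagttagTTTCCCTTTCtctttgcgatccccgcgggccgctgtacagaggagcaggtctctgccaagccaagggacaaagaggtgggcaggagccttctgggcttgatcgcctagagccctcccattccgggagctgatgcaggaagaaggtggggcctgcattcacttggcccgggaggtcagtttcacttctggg
Eif2ak2: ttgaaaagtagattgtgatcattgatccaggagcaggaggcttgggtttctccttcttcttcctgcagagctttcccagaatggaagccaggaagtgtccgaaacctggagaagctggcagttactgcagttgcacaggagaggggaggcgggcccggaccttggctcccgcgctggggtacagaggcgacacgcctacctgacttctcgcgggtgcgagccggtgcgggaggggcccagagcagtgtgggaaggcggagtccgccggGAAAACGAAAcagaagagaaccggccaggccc

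The interferon-stimulated genes were high in the microglia of fl EAE 3 and 4. Their summed level was 1358, 1312, 2886 and 2480 CPM in EAE and 1262, 1462 and 900 CPM in naive mice, with fl EAE 1 and 2 inside the naive range. Of 30 members 15 were tested, 14 had a log2 fold change above 0, 9 an unadjusted p below 0.05 (793 of all 6590 genes, 12.0%, did) and 1 was called (1.06% of all genes), and the median was 0.92 against 0.0 over all genes tested (0.98 in the run 2 pair). All 4 EAE libraries exceeded all 3 naive ones in 3 of the 15 (20%), against 5.8% of all genes. The called member, Eif2ak2 (the double-stranded RNA-activated kinase PKR), was at 202, 104, 201 and 176 CPM against 95.9, 101 and 78.3 CPM (0.92, SE 0.26, adjusted p = 0.0408, run 2 pair 0.87). Herc6, an ISG15 ligase in mice, was at 104, 126, 212 and 189 CPM against 104, 94.2 and 48.9 CPM (0.96, adjusted p = 0.0619). The EAE libraries were unequal: the median member lay 0.27 and 0.30 above the naive mean in fl EAE 1 and 2 but 1.20 and 0.98 above it in fl EAE 3 and 4. A microglial cluster with Iigp1 among its leading genes held 16.4% and 12.3% of the microglia of fl EAE 3 and 4, against 3.49% to 5.83% in the other libraries compared. Of the 16 interferon-inducible GTPases, 4 were tested and none was called (3 at an unadjusted p below 0.05 by edgeR). Their median of 1.20 covers only members past the filter on low counts and is shaped by it, as Gbp5 passed through its EAE libraries alone. Gbp5 was at 5.18, 32.9, 113 and 54.1 CPM against 15.3, 16.2 and 6.52 CPM (2.15, SE 0.78, adjusted p = 0.165). MHC class I genes had a median of 0.63 over 8 tested members, none called and 1 at an unadjusted p below 0.05. Summed over the list they were at 467, 401, 1081 and 930 CPM in EAE against 516, 494 and 479 CPM, with fl EAE 1 and 2 below the naive range.

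Complement genes lay slightly above the naive level in microglia. All 6 tested members had a log2 fold change above 0 (median 0.40, run 2 pair 0.86), 4 of them with all EAE libraries above all naive ones (66.7%, against 5.8% of all genes), and C5ar1 was called. C5ar1, the receptor of the anaphylatoxin C5a, was at 119, 49.4, 70.8 and 84.6 CPM against 26.8, 22.7 and 39.1 CPM (1.44, SE 0.39, adjusted p = 0.0326). C1qb, a chain of the initiating C1q complex, was at 311, 324, 292 and 426 CPM against 194, 253 and 284 CPM (0.49, adjusted p = 0.215), with its lowest EAE value next to the highest naive one. Stat3, the transcription factor downstream of IL-6 family cytokines, stood on the list of reactive astrocyte genes but rose in microglia, from 159, 192 and 163 CPM in naive to 218, 296, 281 and 328 CPM in EAE mice (0.73, SE 0.21, adjusted p = 0.045). Of the chemokines only Ccl12 and Ccl25 could be tested in microglia, and Ccl25 had a log2 fold change of -0.29 (adjusted p = 0.795).

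Genes that fell in microglia included Adamts16, Neurl3, Zc3h6, Frmpd4 and Adgrl3, the 5 that the naming rule gave. The largest fall among the called genes was that of D7Ertd443e, a provisional gene outside the rule, at 15.6, 16.5, 2.21 and 20.3 CPM in EAE against 44.1, 35.7 and 71.7 CPM in naive mice (log2 fold change -2.04, SE 0.57, edgeR adjusted p = 0.0405, run 2 pair -1.08). This gene is also among the leading genes of 4 mature oligodendrocyte clusters. Gm2237, a predicted gene, fell by 1.48 on the log2 scale. Adamts16 (chr13:70875915-70989935, minus strand), a secreted metalloprotease, was at 51.8, 60.4, 55.3 and 33.8 CPM in EAE against 201, 123 and 157 CPM in naive mice (log2 fold change -1.71, SE 0.33, adjusted p = 0.000518, run 2 pair -2.54). Neurl3, a ubiquitin ligase, was at 31.1, 27.4, 22.1 and 30.4 CPM against 76.7, 74.7 and 62.0 CPM (-1.40, SE 0.37, adjusted p = 0.0289, run 2 pair -1.31). In both genes the EAE libraries were tightly grouped well below the lowest naive one. Zc3h6, a zinc finger protein gene, fell by 1.36 on the log2 scale (adjusted p = 0.0232), Frmpd4, a synaptic scaffold gene, by 1.19 (adjusted p = 0.0366), and Adgrl3, which encodes the neuronal adhesion receptor latrophilin 3, by 1.17 (adjusted p = 0.0405). Single genes known mainly from neurons were among the 29 that fell, and are named after their values were seen, with no list behind them: Cntnap2 (-0.98), Dlg2 (-1.04) and Il1rapl1 (-1.16). Not every such gene fell, as Lrrc4, a synaptic adhesion gene, rose by 0.93 (edgeR adjusted p = 0.00809). Neuronal and oligodendrocyte RNA was present in these nuclei in every library. The 8 granule cell markers summed to 819, 1065, 827 and 524 CPM in EAE microglia and 702, 884 and 799 CPM in naive microglia, and the 8 oligodendrocyte markers to 1016, 1026, 1563 and 392 against 1645, 1066 and 1141 CPM. Both sums were lowest in fl EAE 4, and their part in these values was not tested.

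Homeostatic genes of microglia, those of the resting state, showed no call. All 16 members were tested, 13 had a log2 fold change below 0 and 5 an unadjusted p below 0.05, and the median was -0.31 (run 2 pair -0.19). P2ry12, the purinergic receptor that directs microglial processes, was at 897, 960, 957 and 670 CPM against 1160, 1011 and 1242 CPM (-0.39, SE 0.16, adjusted p = 0.218), the EAE libraries lying just under the naive ones. In 3 members (18.8%, against 4.75% of all genes) all EAE libraries lay below all naive ones. Disease-associated microglia genes, which rise around dying neurons and lost myelin in other models, had 9 tested members, none called (2 at an unadjusted p below 0.05), and a median of -0.32. The 8 microglial markers summed to 4869 to 5855 CPM in EAE and 6084 to 7640 CPM in naive microglia. Markers of infiltrating phagocytes were low in the same nuclei, with 10 genes summing to 20.7, 22, 64.1 and 30.4 CPM in EAE against 21.1, 16.2 and 19.6 CPM, Ly6c2 and F10 at 0 in every library, and markers of T or NK cells stayed at or under 11.5 CPM with 8 of 11 at 0.

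fl EAE 3 was examined apart from the other 3 EAE libraries. It stood out by interferon-inducible genes in several cell classes, and as a single library it allows no test. In mature oligodendrocytes the summed level of the 16 interferon-inducible GTPases was 2.88, 4.00, 130 and 5.80 CPM in fl EAE 1 to 4 and 4.85, 5.54 and 5.87 CPM in naive mice. In granule cells the same sum was 2.77, 4.14, 20.5 and 2.65 against 2.60, 4.21 and 3.67 CPM, and in microglia 218, 225, 851 and 362 against 175, 192 and 218 CPM. Apart from fl EAE 3, the EAE libraries lay within or next to the naive range in granule cells and oligodendrocytes. In microglia fl EAE 1 was at the highest naive value, fl EAE 2 just above it and fl EAE 4 further above. In astrocytes (44.1, 30.8, 89.5 and 26.5 against 46.2, 12.9 and 24.5 CPM) and OPCs (24.8, 23.8, 83.4 and 3.68 against 42.7, 27.2 and 16.4 CPM) fl EAE 3 was again the highest. For scale, the 4 NestinCre/+Il12rb2fl/fl EAE libraries held 279 to 846 CPM in mature oligodendrocytes and 2611 to 4814 CPM in microglia, above fl EAE 3 in both.

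**Figure D3:**
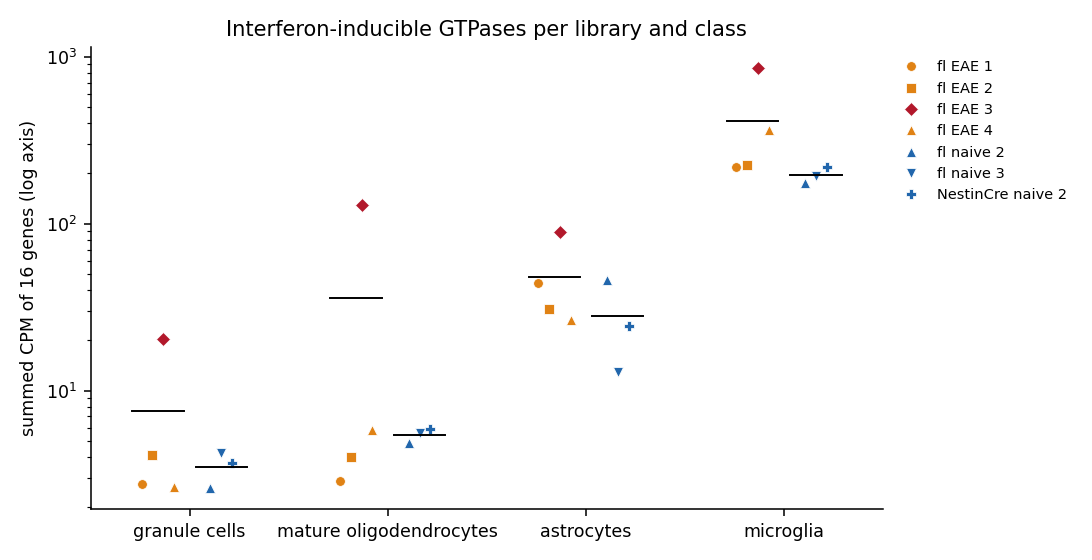
Summed level of the 16 interferon-inducible GTPases in CPM (log axis) per library in 4 cell classes, with the mean of each group as a line and fl EAE 3 as the red diamond. fl EAE 3 is the highest of the 7 libraries in all 4 classes, at 130 CPM in mature oligodendrocytes where no other library exceeds 5.87 CPM.

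The genes in which fl EAE 3 lay furthest from the other libraries were named by that distance, so their values describe the choice and add no support. Iigp1, an immunity-related GTPase, had 191 of its 193 UMIs in mature oligodendrocytes in fl EAE 3 (31.8 CPM, against 0 in 5 libraries and 0.462 CPM in fl naive 3), and in microglia it was at 201 CPM in fl EAE 3 and at most 6.50 CPM elsewhere. Irgm2 stood at 29.0 CPM in fl EAE 3 oligodendrocytes and at most 0.923 CPM in the other 6 libraries, with 174 of 190 UMIs. Igtp was at 13.3 CPM in oligodendrocytes and 4.70 CPM in granule cells of fl EAE 3, against at most 0.677 and 0.339 CPM elsewhere. In granule cells Cxcl10, the chemokine that attracts CXCR3-bearing T cells, was at 3.44 CPM against at most 0.123 CPM, and Psmb8, an immunoproteasome subunit, at 4.16 against at most 0.454 CPM. MHC class I genes in oligodendrocytes summed to 57.1, 65.2, 187 and 42.8 CPM in EAE and 47.9, 69.2 and 66.8 CPM in naive mice. Not every extreme of fl EAE 3 was a rise: Sox4, a developmental transcription factor, was at 2.21 CPM in its microglia against 16.9 to 38.4 CPM elsewhere, and in its astrocytes Cpne4 (1.63 CPM) and Pknox1 (9.77 CPM) were the lowest of the 7. In microglia 18 of 7716 genes and in oligodendrocytes 22 of 13365 lay more than 1 log2 unit above all other libraries in fl EAE 3, and at most 9 and 7 did so in any other library. In astrocytes fl EAE 3 had 2 such genes and fl naive 2 had 40, with 263 more below all other libraries. In the other 2 classes extremes on the low side lay mostly in other libraries, with 170 genes in microglia and 74 in oligodendrocytes of fl EAE 4 below all other libraries, 150 and 7 in fl EAE 2, and 26 and 0 in fl EAE 3.

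Nuclei with several GTPase UMIs were a minority in fl EAE 3. At least 3 GTPase UMIs were found in 74 of its 2368 mature oligodendrocytes (3.12%, exact 95% interval 2.46% to 3.91%) and in 49 of its 213 microglia (23%, 17.5% to 29.2%), and in 15 of 114 microglia of fl EAE 4 (13.2%, 7.56% to 20.8%). After thinning to 1000 UMIs a nucleus, the counts were 34 of 2257 oligodendrocytes and 17 of 201 microglia in fl EAE 3, and 4 of 112 microglia in fl EAE 4, and 0 in the oligodendrocytes of the other 6 libraries. Microglia of the naive libraries had 0, 3 and 3 such nuclei before thinning and 0 after it. In granule cells no library stood apart, with 1 of 9965 such nuclei in fl EAE 3, 5 of 10513 in fl naive 3 and 0 after thinning in all 7, and the 6 of 196 in astrocytes of fl EAE 3 also fell to 0. These intervals cover counting error only. One cluster of oligodendrocytes, which Iigp1 and Irgm2 helped to define, held 105 fl EAE 3 nuclei and 0 to 5 of each of the other 6 libraries compared, while 1354 of its 1472 kept nuclei were of the 4 NestinCre/+Il12rb2fl/fl EAE libraries. A granule cell cluster led by Irgm2 and Nlrc5, with 969 of 1041 nuclei from those 4 libraries, held 50 nuclei of fl EAE 2 (0.454% of its granule cells), 8 of fl EAE 3 (0.0803%) and 1 to 6 of each of the other 5. fl EAE 3 shared 0.404% to 0.663% of barcodes with any other library of the series, the most with NestinCre EAE 4 (122 barcodes). Whether the nuclei with GTPase UMIs carry shared barcodes was not tested. Leaving out fl EAE 3 gave 85 genes called in all classes and 59 in microglia, and 6 in mature oligodendrocytes where all 7 libraries gave 0.

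OPCs, the dividing precursors of oligodendrocytes, had 6 genes that rose and 6 that fell, from 50 to 90 nuclei a library. The count of 12 was 1 without fl EAE 4, 4 without fl EAE 1 or fl EAE 2, 6 without fl naive 3 and 1 with DESeq2. Ccnd2, which encodes cyclin D2, a driver of entry into the cell cycle, was at 24.8, 11.9, 25.0 and 11.0 CPM in EAE and 80, 99.8 and 57.3 CPM in naive mice (log2 fold change -2.02, SE 0.45, edgeR adjusted p = 0.0183, run 2 pair -2.75). Htra1, a secreted serine protease, was at 153, 95.2, 86.2 and 176 CPM against 21.3, 54.4 and 61.4 CPM (1.43, SE 0.36, adjusted p = 0.0376, run 2 pair 2.99). Fkbp5 rose as it did in microglia, to 86.7, 107, 55.6 and 154 CPM against 21.3, 27.2 and 49.1 CPM (1.58, SE 0.41, adjusted p = 0.0456, run 2 pair 2.80). The groups were separated in all 3 genes, as the naming rule required, and for Fkbp5 fl EAE 3 was again the lowest EAE library. Ccnd2 passed the filter on low counts through its naive libraries alone. Safb, which encodes a nuclear scaffold protein, fell by 1.21 on the log2 scale (SE 0.30, adjusted p = 0.0376). In Purkinje cells Nkain2, a partner of the sodium pump, fell to 19.0, 10.9, 18.2 and 8.97 CPM from 27.1, 64.0 and 59.8 CPM (-1.95, SE 0.42, adjusted p = 0.0198). In vascular leptomeningeal cells or fibroblasts Ctnna3, which encodes an alpha-catenin, rose to 294, 372, 296 and 332 CPM from 78.2, 99.4 and 33.2 CPM (2.34, SE 0.56, adjusted p = 0.0433), on 83 UMIs in all. Ctnna3 passed the filter on low counts through its EAE libraries alone. In Bergmann glia the predicted gene 9330159F19Rik, outside the naming rule, rose by 1.93 (adjusted p = 0.0221).

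Glucocorticoid-responsive genes lay above the naive level in mature oligodendrocytes of EAE mice, without a call. Of 24 genes 23 were tested, 21 had a log2 fold change above 0 and 13 an unadjusted p below 0.05 (12.0% of all 12759 genes did). The median was 0.77 against -0.01 over all genes tested, and 1.20 in the run 2 pair. In 7 of them (30.4%) all EAE libraries lay above all naive ones, against 4.44% of all genes, and in 1, Nedd9, below (4.35%, against 7.99%). Sgk1, a kinase that glucocorticoids induce in oligodendrocytes, was at 343, 546, 313 and 560 CPM in EAE and 23, 95.3 and 128 CPM in naive mice (2.52, SE 0.84, edgeR adjusted p = 0.185, run 2 pair 4.55). Fkbp5 was at 113, 141, 59.0 and 158 CPM against 9.96, 35.1 and 28.9 CPM (2.37, SE 0.75, adjusted p = 0.185), and Zbtb16, a zinc finger transcription factor, at 534, 411, 241 and 573 against 52.0, 92.6 and 211 CPM (1.96). In each of these fl EAE 3 was the lowest EAE library and fl naive 2 the lowest naive one. Tsc22d3, the glucocorticoid-induced leucine zipper, had less spread, at 268, 200, 187 and 273 CPM against 133, 137 and 146 CPM (0.80, adjusted p = 0.115). The Sgk1 difference was called by DESeq2 (adjusted p = 0.00924) and by edgeR without fl naive 2 (0.012). Its adjusted p lay between 0.00924 and 0.646 over all alternatives. With run in the model over 7 libraries the log2 fold change was 4.67, which rests on the run 2 pair.

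**Figure D4:**
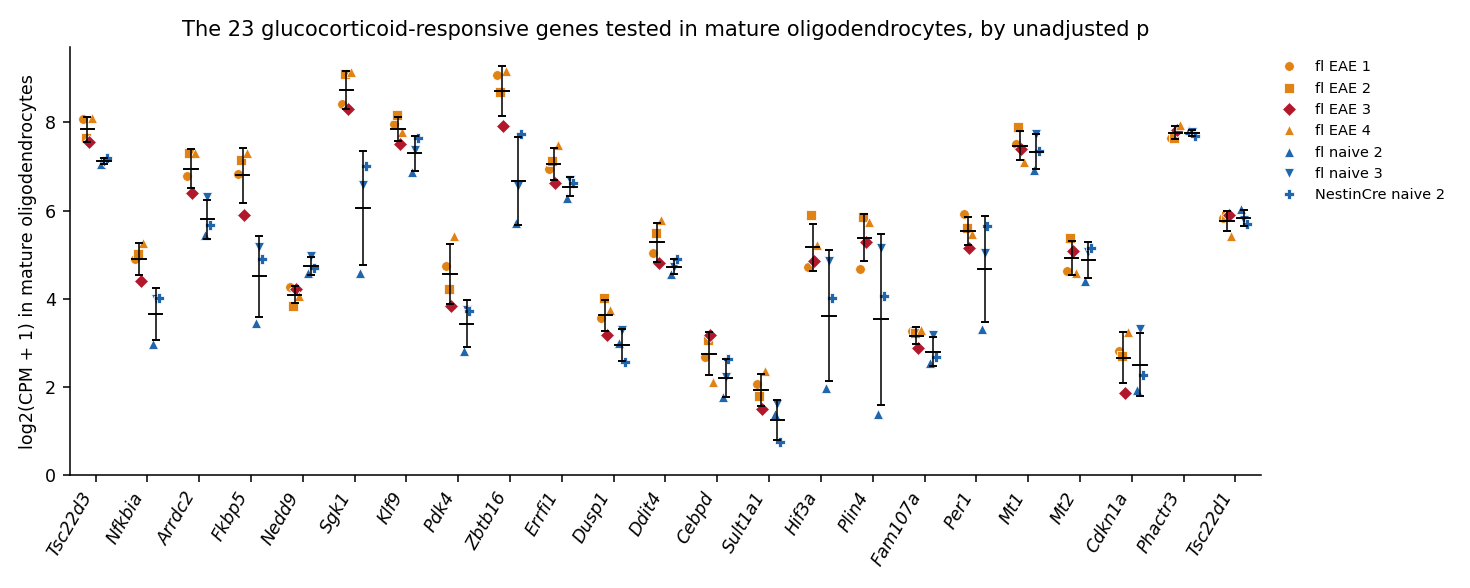
Level of the 23 tested glucocorticoid-responsive genes in mature oligodendrocytes as log2(CPM + 1) per library, ordered by unadjusted p, with the mean and SD of each group and fl EAE 3 as the red diamond. In 7 genes the EAE libraries lie above all naive libraries, and in none was the adjusted p below 0.05.

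The Sgk1 promoter (RefSeq, GRCm38.p6, chr10:21993640-21993939, plus strand) is shown because it holds the palindromic glucocorticoid response element (AGAACA, any 3 bases, TGTTCT), in capitals. The motif was in 1 of 21 matched genes of the list (4.76%, of 24) and in 3 of all 27025 promoters (0.0111%), and it reads the same on both strands.
Sgk1: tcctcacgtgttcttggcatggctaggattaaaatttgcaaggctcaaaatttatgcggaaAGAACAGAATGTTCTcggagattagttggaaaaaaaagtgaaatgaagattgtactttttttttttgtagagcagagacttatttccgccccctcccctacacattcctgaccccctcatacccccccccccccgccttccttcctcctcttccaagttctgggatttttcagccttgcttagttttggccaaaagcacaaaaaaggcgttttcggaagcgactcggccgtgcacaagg

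In the other classes given here the medians were nearer to 0. The median log2 fold change was 0.49 in Bergmann glia (10 tested), 0.39 in OPCs (8 tested, Fkbp5 called), 0.28 in astrocytes (17 tested), 0.24 in microglia (11 tested, Fkbp5 called), 0.15 in granule cells (23 tested) and -0.11 in excitatory neurons. Whether these medians differ between classes was not tested. Summed over the list, every EAE library lay above every naive one in mature oligodendrocytes (1854 to 2886 against 976 to 1494 CPM). The same held in microglia (1013 to 1493 against 692 to 991 CPM), OPCs (1599 to 2121 against 1130 to 1515 CPM) and granule cells (1382 to 1453 against 1252 to 1370 CPM). In astrocytes the sums overlapped.

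Granule cells, the most numerous neurons, showed differences in a few lists, none with a called member. Of 6 tested MHC class II genes 4 had an unadjusted p below 0.05 and all EAE libraries above all naive ones (66.7%, against 3.63% of all genes). Cd74, the invariant chain, was at 2.32, 1.28, 9.31 and 2.46 CPM against 0.565, 0.654 and 0.519 CPM (log2 fold change 2.77, edgeR adjusted p = 0.303). The levels were low and highest in fl EAE 3, where markers of infiltrating phagocytes were highest too. These markers summed to 6.31, 3.63, 20.3 and 7.71 CPM in EAE granule cells and 2.77, 4.45 and 7.42 CPM in naive ones, with the groups overlapping. Their part in the MHC class II values was not tested. Summed over the MHC class II list, the groups overlapped in granule cells, with fl EAE 4 at 19.1 CPM and fl naive 3 at 19.2 CPM. In microglia the sums were 31.1, 43.9, 181 and 44.0 CPM in EAE against 53.7, 81.2 and 94.6 CPM in naive mice. There fl EAE 3 lay above the naive range, and fl EAE 1, 2 and 4 lay below it. Immediate early genes, which neuronal activity induces, had a median of 0.60 in granule cells over 15 tested members, 6 of them at an unadjusted p below 0.05. Fos was at 17.3, 11.4, 2.98 and 19.3 CPM against 2.88, 8.17 and 1.19 CPM (1.76, adjusted p = 0.367) and Homer1, a postsynaptic scaffold, at 119, 107, 103 and 159 against 89.3, 80.4 and 71.0 CPM (0.69, adjusted p = 0.303). Homer1 separated the groups and Fos did not. Circadian clock genes had a median of 0.18 over 17 members, with Per2 at 54.7, 39.6, 28.7 and 51.9 CPM against 11.5, 22.8 and 33.1 CPM (1.04, adjusted p = 0.316), and the hour of collection is not in the labels. All 24 channel genes and all 24 transmitter receptor genes were tested in granule cells, with medians of 0.03 and 0.01 and no call. An unadjusted p below 0.05 was found for 3 and 6 of them, and for 11.7% of all genes tested in granule cells.

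The 13 protein-coding genes of the mitochondrial genome had a log2 fold change below 0 in every tested member of all 13 classes, with medians of -0.41 to -0.81 and -0.71 in granule cells. The run 2 pair differed in the same direction except in Purkinje cells (0.71). Over whole libraries mitochondrial UMIs made up 0.277%, 0.282%, 0.323% and 0.191% in EAE against 0.252%, 0.435% and 0.503% in naive mice. The highest values were those of the run 3 libraries, fl naive 3 and NestinCre naive 2, and fl naive 2 lay below fl EAE 1, 2 and 3. mt-Nd3, a subunit of respiratory complex I, was the 1 called member, in microglia, at 62.2, 32.9, 42.0 and 30.4 CPM against 144, 117 and 91.3 CPM (-1.54, SE 0.34, adjusted p = 0.00565). In nuclei such transcripts come from outside the nucleus, and their part in other results was not tested. Myelin genes differed little in mature oligodendrocytes (median -0.05, 15 tested, 0 called by edgeR, 3 at an unadjusted p below 0.05), while in granule cells 14 of 15 had a log2 fold change below 0 (median -0.28). The deviation there went from -1.36 in fl EAE 4 to 0.42 in fl EAE 3. Cholesterol synthesis genes, which oligodendrocytes need for myelin, were below 0 in 15 of 19 members in mature oligodendrocytes (median -0.22) and in 7 of 7 in OPCs (median -0.82), none called (2 at an unadjusted p below 0.05 in each). Heat shock protein genes were above 0 in 11 of 12 in oligodendrocytes (median 0.32), with Hsph1 at 55.8, 51.0, 45.2 and 131 CPM against 31.9, 35.5 and 29.4 CPM (1.21, adjusted p = 0.311). Reactive astrocyte genes had 6 tested members in astrocytes, none called (2 at an unadjusted p below 0.05), and a median of -0.43. There 5 of 6 were below 0, and the share of all astrocyte genes with every EAE library above the naive ones was 3.22%, and below them 4.47%, against 0 and 2 of these 6. In granule cells 9.07% of all genes had every EAE library below every naive one.

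Of the IL-12 receptor chains, Il12rb2 (chr6:67268302-67353172, minus strand) did not differ in granule cells beyond the spread of the libraries, at 15.8, 20.9, 16 and 14.3 CPM in EAE and 18.1, 17.6 and 16.5 CPM in naive mice (log2 fold change 0.01, SE 0.13). Il12rb1 (chr8:71261093-71276183, plus strand) was found mostly in mature oligodendrocytes, at 6.09, 12.3, 12.2 and 9.66 CPM against 5.79, 8.31 and 4.29 CPM (0.79, SE 0.32, edgeR adjusted p = 0.295, unadjusted 0.0143). No Il12rb1 UMI was counted in microglia or astrocytes of the 7 libraries.

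The shares of cell classes were compared by an exact permutation test that could not reach 0.05. With 4 libraries against 3 there are 35 assignments. The smallest two-sided p of the exact permutation test, which here doubles the smaller tail, is 0.0571. Granule cells made up 72.4% ± 5.28 (SD, n = 4) of nuclei in EAE and 68.1% ± 9.59 (n = 3) in naive mice (exact p = 0.514, and the difference turned to -1.22 percentage points without fl naive 2), mature oligodendrocytes 10.9% ± 3.48 and 14.5% ± 5.29 (exact p = 0.343, with a difference of -3.58 percentage points that was -0.555 without fl naive 2), and microglia 0.923% ± 0.323 and 1.44% ± 0.696 (exact p = 0.343). The microglial share was 0.846%, 0.699%, 1.40% and 0.748% in EAE and 2.25%, 1.10% and 0.985% in naive mice, so that the naive mean rests on fl naive 2. Neutrophils, named by a cluster led by Slfn4, Csf3r and S100a9, counted 5, 3, 6 and 8 nuclei in EAE and 0, 0 and 1 in naive libraries (0.0373% ± 0.0132 against 0.00258% ± 0.00448, exact p = 0.0571, adjusted over 20 classes 0.571). edgeR's quasi-likelihood test on the nuclei counts of the classes, an alternative, gave an adjusted p of 0.00361 for neutrophils. The groups do not overlap, and 0 nuclei allows a share of up to 0.0181% in fl naive 2 and 0.0208% in fl naive 3. The minimum of genes per nucleus was lower for fl EAE 1, 2 and 3 than for fl EAE 4 and every naive library. The neutrophil cluster was shallow, with a median of 909 UMIs, so the stricter minimum may have removed such nuclei. No alternative used a common minimum, and its part in the neutrophil counts was not tested. fl EAE 4, with 8 nuclei, had the same minimum as the naive libraries. Infiltrating phagocytes counted 13, 5, 24 and 24 nuclei in EAE against 15, 4 and 6, and T or NK cells 6, 5, 11 and 5 against 7, 2 and 4 (exact p = 0.229 for each). Both overlapped between the groups, and fl EAE 3 had the highest or joint highest count of each.

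**Figure D5:**
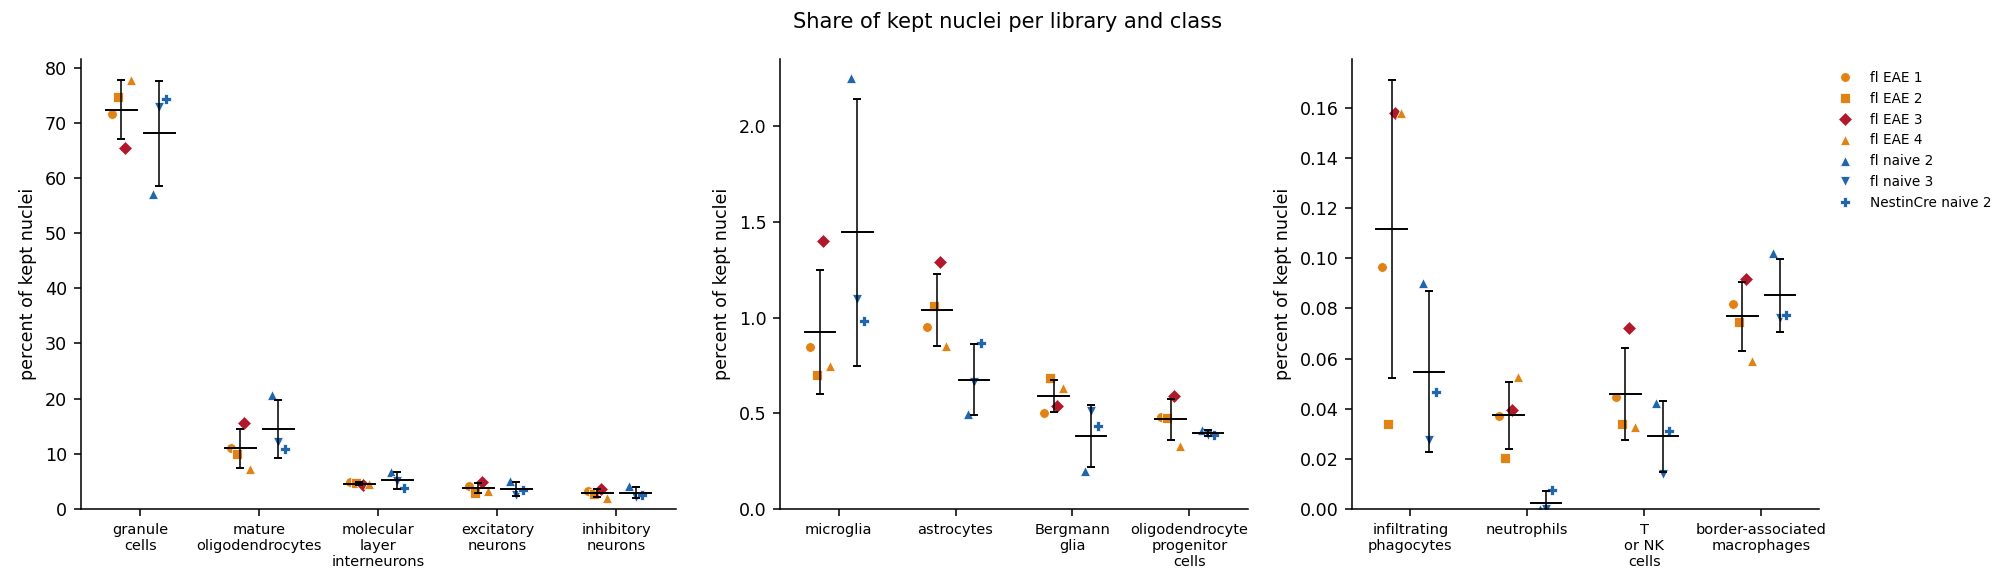
Percent of kept nuclei per library in the major and immune cell classes (3 panels with their own axes, all from 0), with the mean and SD of each group and fl EAE 3 as the red diamond. Neutrophils are the 1 immune class shown in which the EAE libraries (0.0373% on average) do not overlap the naive ones (0.00258%). The share of fl EAE 2 (0.0203%) lies under the 0.0208% that 0 nuclei allows in fl naive 3. The minimum of genes per nucleus was lower for fl EAE 1, 2 and 3 than for the other libraries.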

How the data were processed

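Nuclei of the 11 libraries were sorted by Hoechst and sequenced on 3′ libraries from 10x Genomics. Per the labels and file headers, the authors aligned reads to GRCm39 with introns counted (Cell Ranger 6.0.2 in the labels, 7.0.0 in run 1 headers and 6.0.2 in the others) and deposited whole-number UMI counts per gene and barcode, not normalized. The 2 Cell Ranger versions follow the runs. The comparison, members and lists were chosen with earlier results of these data known.

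Of 122889 barcodes in the 7 libraries, 121338 passed at least 200 genes in run 1 or 500 in runs 2 and 3 and under 5% mitochondrial UMIs. Doublets were removed by score (0.8% per 1000 barcodes) and in clusters with over 40% of them, leaving 102608. Nuclei were clustered in 2 rounds (scanpy 1.11.5, leidenalg 0.10.2) and named from markers of 26 cell types. UMI counts were summed per library and class and tested with edgeR 4.0.16 (quasi-likelihood test, TMM, filterByExpr, R 4.3.3), with EAE against naive the only term and Benjamini-Hochberg adjustment within a class. limma 3.58.1 and DESeq2 1.42.0 were also loaded, DESeq2 as an alternative. The tests were checked on simulated counts without a run effect. False calls were 12 of 158 in microglia, 15 of 185 in granule cells, 14 of 159 in astrocytes and 21 of 188 in mature oligodendrocytes. For the 24 lists no set test was run. Shares were tested by exact two-sided permutation (scipy 1.17.1).

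Named genes were both receptor chains, up to 5 called genes a direction in granule cells, mature oligodendrocytes, astrocytes and microglia and up to 2 elsewhere (at least 50 UMIs, groups not overlapping, same direction in the run 2 pair, largest fold change, with predicted or provisional gene names such as Gm, Rik and Ertd ones and mitochondrial, ribosomal protein and sex-linked marker genes passed over), up to 4 members of a list by smallest p in the class with most calls, ties going to the class with most members at an unadjusted p below 0.05, and up to 3 genes a main class in which fl EAE 3 lay furthest from the others. Not all named genes are printed, some results are not reported here, and genes outside the rule are marked as such. Replicate numbers 2 and 3 occur in both conditions but in different runs. Alternatives were DESeq2, RLE factors, no filter, run in the model, the 11 libraries, other doublet and UMI limits, and each library left out.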

Additional observations from a re-analysis of the deposited data

Results flagged for a closer look

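In 10 of 91 groups of 4 EAE libraries 1 value lay far from the other 3 (its gap to the nearest, as a share of the range, passed Dixon's 95% critical value), where chance flags about 5% of groups. fl EAE 3 was the far library in 4 of them: Rai14 in microglia (117 CPM, highest), Cd74 in granule cells (9.31 CPM, highest), Nr1d2, a clock repressor, in granule cells (155 CPM, lowest) and the chaperone gene Hsp90aa1 in mature oligodendrocytes (409 CPM, highest). fl EAE 2 was far in another 4: Cd244a (43.9 CPM, lowest) and the complement receptor gene C3ar1 (38.4 CPM, lowest) in microglia, the fructose transporter gene Slc2a5 in microglia (76.8 CPM, highest) and Gclc, of glutathione synthesis, in inhibitory neurons (86.3 CPM, highest). In mature oligodendrocytes fl EAE 4 was far for the chaperone genes Hsph1 (131 CPM, highest) and Hspe1 (43.3 CPM, lowest).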

How the results depend on the processing

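The number of genes called over all classes (85) was 300 with DESeq2, 361 without the filter on low counts, 1173 with run in the model over 7 libraries, 218 with run over 11 libraries and 38 over 11 libraries without run. In granule cells (0) it was 99 with DESeq2 and 150 and 2 with run over 7 and 11 libraries. In mature oligodendrocytes (0) it was 102, 35 without the filter, 652 and 160 with run, and 2 over 11 libraries without run. In astrocytes (0) it was 1, 23, 116 and 44. In microglia (70, 41 higher and 29 lower) it was 32, 161, 101 with run over 7 libraries (34 higher and 67 lower), 0 with run over 11, 23 over 11 without run, and 41 where doublets were removed by cluster alone. With 1 library left out the counts were 26 to 618 over all classes, 0 to 109 in granule cells, 0 to 68 in mature oligodendrocytes, 0 to 4 in astrocytes and 15 to 85 in microglia. Without a library the range of the share difference was -1.22 (without fl naive 2) to 7.42 percentage points for granule cells, and the T or NK share differed by -0.00932 in the run 2 pair against 0.0169 overall. Counts with run in the model over 7 libraries rest on the run 2 pair, with 1 library of each condition. The cause of these shifts was not tested.

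The replicate numbers 2 and 3 do not pair the samples: deviations of same-numbered samples correlated at -0.22 to 0.09 and of others at -0.25 to 0.32. The highest value was that of the run 2 pair in granule cells. The same pair was at 0.24 in mature oligodendrocytes, 0.07 in astrocytes and 0.08 in microglia. A fit with the replicate block called 169 genes in all, 115 in microglia and 0 in OPCs.

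The 20 named calls kept their direction in every setting in which they were tested, which was 18 of them under 6000 UMIs and without fl EAE 3 or 4, and 19 without fl EAE 1 or 2. Those named by fold change had been chosen to go the same way in the run 2 pair. All 20 lost the threshold with run over 11 libraries, 18 with DESeq2 and 13 with run over 7, and none with RLE factors. Log2 fold changes that reversed were Tgfbr1 (0.02) and Slc2a5 (0.18) in microglia and Cd63 in astrocytes (0.14) with run over 11 libraries, Jun in granule cells (0.01) with run over 7, and Kcnip4 in Bergmann glia (-0.08) where doublets were removed by cluster alone. The granule cell share outside granule cells was not run, having no value. Depth limits the small classes, with 11 to 38 nuclei a library in newly formed oligodendrocytes, 17 to 45 in unipolar brush cells and 103 to 373 in microglia. Newly formed oligodendrocytes also take in a cluster of 48 nuclei in the series whose leading genes hold no marker of the class. Its median of 12650 UMIs weighs on the sums, and the results of this class may not be those of newly formed oligodendrocytes.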

Other observations

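Other lists gave no call. Oxidative stress defence genes had a median log2 fold change of 0.02 in granule cells (17 tested) and 0.04 in mature oligodendrocytes (16 tested). In mature oligodendrocytes 12 disease-associated oligodendrocyte genes were tested (median 0.45), 3 of them at an unadjusted p below 0.05 (12.0% of all genes tested there were). Sgk1 and Il12rb1, already given above, are among these. Of the neuronal genes that the study names, all 23 were tested in granule cells (median 0.07) and in mature oligodendrocytes (median -0.14). Hecw2, a ubiquitin ligase gene of that list, was at 1669, 1591, 1406 and 1726 CPM in EAE oligodendrocytes against 808, 1193 and 1370 CPM in naive ones (0.57, SE 0.20, edgeR adjusted p = 0.225), with the lowest EAE value next to the highest naive one. Vascular activation genes had 7 tested members in granule cells (median 0.06) and haemoglobin genes 4 (median 0.12).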
